A study of Mus musculus with 6 samples.

Results

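The nuclear pore complex is the channel through which proteins and RNA cross the nuclear envelope, and soluble receptors carry cargo through it. The genes described here were 46 named genes of both kinds, 28 encoding nucleoporins, the proteins of the pore, and 18 encoding transport receptors or proteins of the Ran cycle. They were found by gene symbol in the deposited count table, which held 45 of them among 17512 genes. Nup62, a nucleoporin of the central channel, was not analysed here. All 45 passed the filter on low counts, as did 14773 genes in all. The 45 genes lay on 15 chromosomes, with 0 on X or Y.

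RNA was sequenced from pMEFs, primary cultures of mouse embryonic fibroblasts made from mid-gestation embryos after the internal organs were removed. All 6 lines were of the C57bl6 background, with 3 lines of intact Hat1 (HAT1 WT, lines 36, 47 and 78) and 3 lines labelled as its knockout (HAT1 KO, lines 33, 41 and 72). HAT1 acetylates newly made histone H4 in complexes that bring new histones to the nucleus, and the study examined its part in the accessibility of chromatin domains that lie at the nuclear lamina, the layer to which the pores are also anchored. The comparison asked whether the loss of HAT1 goes with a difference in the mRNA of the pore and transport genes. Nothing in the labels says that the lines of a genotype came from separate embryos, so p-values measure the spread between lines, which may be partly technical.

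Nucleoporins assemble in layers around a central channel. Outer and inner rings form the scaffold, membrane nucleoporins hold it in the envelope, filaments reach into the cytoplasm, and a basket reaches into the nucleus. Receptors of the importin beta family bind cargo directly or through an importin alpha adaptor, and exportins carry cargo out. Ran, a small GTPase, sets the direction, because its GTP form is made in the nucleus by RCC1 and is turned over in the cytoplasm with the help of RANGAP1.

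Promoter sequences are printed for 4 genes to which the comparison returns, namely Kpna2 and Nup107, with the largest log2 fold changes, and Sec13 and Ran, with the smallest p-values, among the genes with a single promoter entry. They are the bases upstream of the RefSeq start on GRCm38.p6, 5′ to 3′, ending where the GENCODE M21 gene begins. Capitals mark the letters of motifs that are counted further on.
Kpna2 (chr11:106999542-106999775, minus strand): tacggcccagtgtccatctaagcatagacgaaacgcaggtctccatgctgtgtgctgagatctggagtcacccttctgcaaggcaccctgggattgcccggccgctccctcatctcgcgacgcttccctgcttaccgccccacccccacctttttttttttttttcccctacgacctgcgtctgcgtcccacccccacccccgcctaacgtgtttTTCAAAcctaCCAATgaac
Nup107 (chr10:117792706-117792955, minus strand): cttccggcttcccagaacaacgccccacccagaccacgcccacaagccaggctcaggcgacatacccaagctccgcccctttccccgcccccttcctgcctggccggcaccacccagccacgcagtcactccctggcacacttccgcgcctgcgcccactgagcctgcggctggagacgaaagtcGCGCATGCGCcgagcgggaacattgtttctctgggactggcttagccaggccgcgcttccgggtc
Sec13 (chr6:113740744-113740931, minus strand): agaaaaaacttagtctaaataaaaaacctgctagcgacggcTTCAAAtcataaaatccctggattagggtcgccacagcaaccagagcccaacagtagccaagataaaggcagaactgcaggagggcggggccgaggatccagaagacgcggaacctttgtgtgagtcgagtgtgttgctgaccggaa
Ran (chr5:129019906-129020068, plus strand): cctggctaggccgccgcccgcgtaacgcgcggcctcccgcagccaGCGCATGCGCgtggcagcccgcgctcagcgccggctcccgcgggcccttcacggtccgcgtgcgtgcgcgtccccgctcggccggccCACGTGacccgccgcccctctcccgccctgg
Kpna2 held a CCAAT box and, in reverse, the core TTTGAA of the cell cycle homology region. Sec13 also held that core in reverse. Nup107 and Ran each held letters GCGCATGC of the NRF1 core, on both strands, and Ran held an E box, CACGTG.

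The libraries held 67720628 to 98786746 counts, and expression is given as CPM, the counts relative to library size after edgeR's TMM scaling of the libraries. Hat1 measured 17.4, 23.0 and 20.1 CPM in WT lines 36, 47 and 78 and 10.2, 10.0 and 10.3 CPM in KO lines 33, 41 and 72, with a log2 fold change of -0.99 ± 0.12 (SE; adjusted p = 0.0376), and its lines did not overlap. The mean level in HAT1 KO was thus 50.4% of that in HAT1 WT, and counts over a whole gene cannot show which part of it was deleted. Over the alternatives the log2 fold change of Hat1 stayed between -1.17 and -0.87, but its adjusted p missed the threshold in 9 of 15. Among these were lane in the model (0.529), the proliferation score (0.378), the Y-linked term and each fit without 1 line (0.0587 to 0.23). Several features of the libraries moved with the genotype. A score of 12 proliferation markers (mean log2 CPM) was 5.16, 5.77 and 5.16 in WT lines 36, 47 and 78 and 6.29, 6.03 and 5.73 in KO lines 33, 41 and 72, so that KO line 72 lay just below WT line 47. Counts on Y-linked genes were 13788 and 12841 in WT lines 36 and 47, 231 in WT line 78, and 4 to 8 in the KO lines. WT line 47 shared lane 6 with KO lines 33 and 72, WT line 78 shared lane 7 with KO line 41, and WT line 36 was the only library on lane 8. Of the 10 blood and macrophage markers, 10 were lower in HAT1 KO and 7 passed the adjusted threshold, with summed levels of 2037 to 2181 CPM in WT and 1152 to 1298 CPM in KO. The 10 fibroblast markers summed to 71180 to 76580 CPM in WT and 57740 to 89810 CPM in KO. Of these, 4 were higher in KO and 6 lower, among them Thy1 with a log2 fold change of -0.31 ± 0.12 (SE). Endothelial markers summed to 13.2 to 14.2 CPM in WT and 10.5 to 14.6 CPM in KO, and epithelial markers to 1.76 to 2.08 CPM and 1.095 to 2.13 CPM. Of the 5 endothelial markers tested, 4 were lower in KO and Tek was higher (log2 fold change 0.084 ± 0.71, SE). Among the lower were Pecam1 (-1.63 ± 0.41) and Cdh5 (-0.85 ± 0.28), with mean levels of 0.59 and 0.60 CPM in WT. Of the 2 epithelial markers tested, Cdh1 was higher (1.265 ± 0.57) and Krt18 lower (-2.16 ± 1.04). For muscle and neural markers the sums were 78.3 to 86.5 CPM in WT and 96.5 to 218 CPM in KO, and Myod1 and Myog, defining muscle markers, were not analysed here. Of the 4 measured, 3 were higher in KO, and Des, a muscle marker, was lower (log2 fold change -0.35 ± 0.88, SE). Map2, a neural marker, made up 153 CPM of the sum in KO line 72. Sox10, counted among the higher, measured 7.52, 0.089 and 0.0 CPM in KO lines 33, 41 and 72. Its levels in WT lines 36, 47 and 78 were 0.16, 1.42 and 1.92 CPM. In such bulk samples, fewer cells of a type and less RNA per cell cannot be told apart. The part of these marker lists other than proliferation in the results on the pore genes was not tested.

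Pore and transport mRNA was slightly higher in HAT1 KO lines almost throughout the list, and no single gene passed the adjusted threshold. Of the 45 genes, 43 (95.6%) had a log2 fold change above 0, against 51.5% of all genes tested. The median log2 fold change was 0.21, against 0.0085 over all genes, and the range ran from -0.065 for Tpr to 0.51 for Kpna2. In edgeR's quasi-likelihood test 0 of the 45 passed an adjusted p-value of 0.05, a threshold passed by 0.528% of all genes, every one of them lower in KO. The smallest adjusted p among the members was 0.165, for Sec13. The members with an unadjusted p-value under 0.05 numbered 18, all higher in KO (40.0%), where 5.88% of all genes were higher at that threshold. With DESeq2's Wald test 2 members, Sec13 and Ran, passed the adjusted threshold, which 1.5% of all genes passed in the higher direction.

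Line by line, the list as a whole split by genotype, by graded amounts, while most single genes overlapped between genotypes. The summed CPM of the 45 genes was 4855, 5229 and 4824 in WT lines 36, 47 and 78 and 5687, 5666 and 5373 in KO lines 33, 41 and 72. KO lines therefore lay above every WT line, with a mean sum that was 112.2% of the WT mean. In 16 members (35.6%) all KO lines exceeded all WT lines, against 9.59% of all genes in that direction, and in 0 members were all KO lines lower. At least 1 KO line exceeded every WT line in each of the 45 genes, 2 did so in 21 of them and 1 in 8. These counts, and the counts by line that follow, were not set beside all genes. KO line 33 was the highest of the 6 lines in 25 members, KO line 41 in 12 and KO line 72 in 8. WT line 47 was the highest WT line in 32 members, and KO line 72 was the lowest KO line in 29. The order of these lines by their median log2 difference from the WT mean was 0.26, 0.20 and 0.13 for KO lines 33, 41 and 72, then 0.072, -0.019 and -0.037 for WT lines 47, 78 and 36. The proliferation score placed the lines in the same order except that WT line 47 came just above KO line 72 and that WT lines 36 and 78 shared a value.

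**Figure D1:**
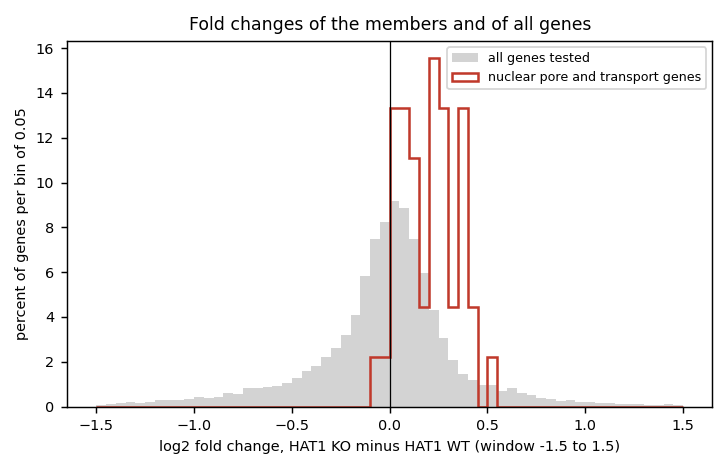
Distribution of log2 fold changes (x axis, KO minus WT, from -1.5 to 1.5) as percent of genes per bin (y axis) for all 14773 genes tested (grey) and the 45 pore and transport genes (red outline). The red outline lies almost wholly to the right of 0 and within the span of the grey bars.

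**Figure D2:**
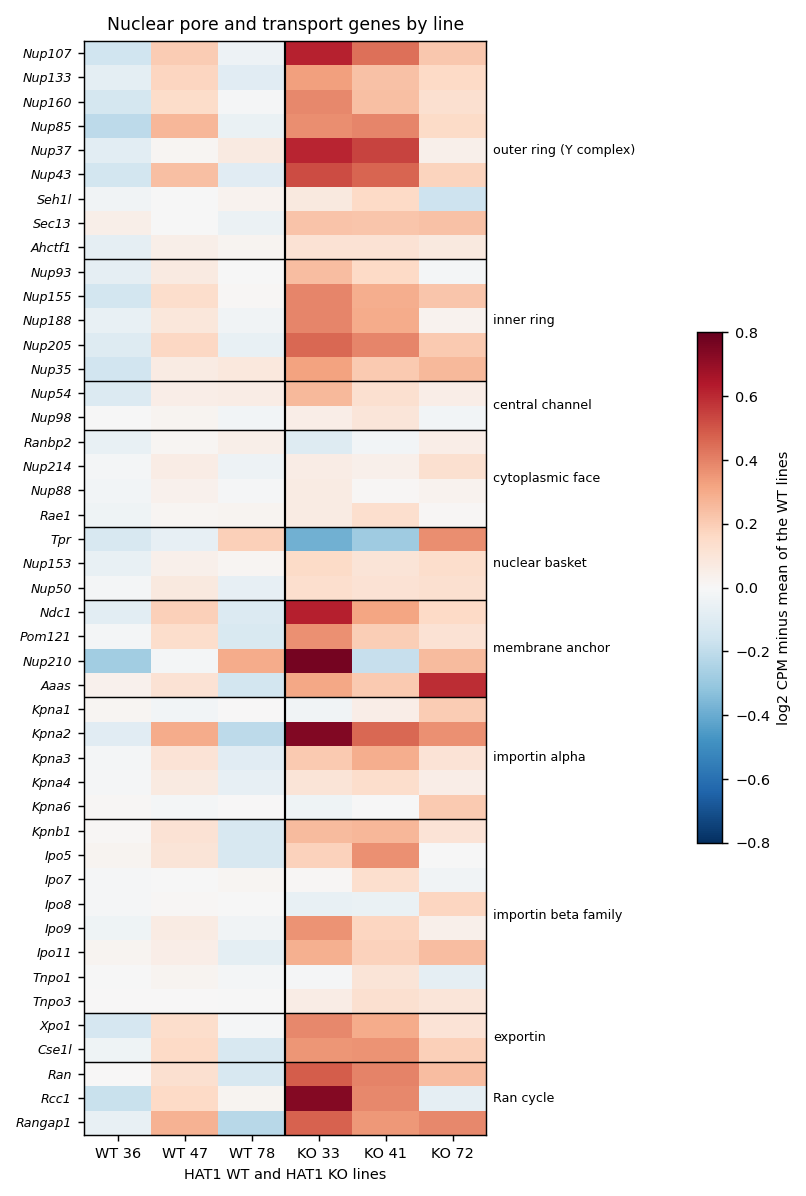
Heat map of the 45 genes (rows, by role) in the 6 lines (columns). Colour gives the log2 difference in CPM from the mean of the WT lines, and KO line 33 is the highest line in 25 rows.

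Within sequencing lanes the direction was kept by most members. In lane 6, 38 of 45 genes were higher in the mean of KO lines 33 and 72 than in WT line 47, with a median log2 difference of 0.10, where 52.2% of all genes were higher. In lane 7, 40 of 45 were higher in KO line 41 than in WT line 78, with a median of 0.24, where 48.5% of all genes were higher. With lane as a term of the model, 43 of 45 remained above 0 and the median was 0.18. WT line 36, the only library on its lane, added nothing to the genotype estimate in that fit. The number at an unadjusted p-value under 0.05 was then 2, Sec13 and Ipo11, where 1.39% of all genes were higher at that threshold. With Y-linked expression as a term, 43 of 45 were above 0, the median was 0.26 and an unadjusted p-value under 0.05 was reached by 11 members, all of them higher, against 5.44% of all genes.

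With the proliferation score as a term beside genotype, the difference over the list was smaller. The 12 markers themselves were all higher in KO, 9 of them at an unadjusted p-value under 0.05, with sums of 534 to 800 CPM in WT and 825 to 1115 CPM in KO. In that fit the members' median log2 fold change was 0.038, 29 of 45 were above 0, and 0 reached an unadjusted p-value under 0.05, where 3.24% of all genes did so in the higher direction. Estimates were closer to 0 for 35 of the 45 genes, and for 16 of the 18 with an unadjusted p-value under 0.05 under genotype alone. The share of all genes that moved closer to 0 was not taken, and the 18 had been picked by the first fit. Kpna2 moved from 0.51 to 0.054, Nup107 from 0.43 to 0.038 and Rcc1 from 0.38 to -0.18. Sec13 (0.23 and 0.23) and Aaas (0.37 and 0.39) held their size, and Tpr went from -0.065 to 0.32. Genotype and score overlap in these lines, so their shares of the difference cannot be told apart.

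**Figure D3:**
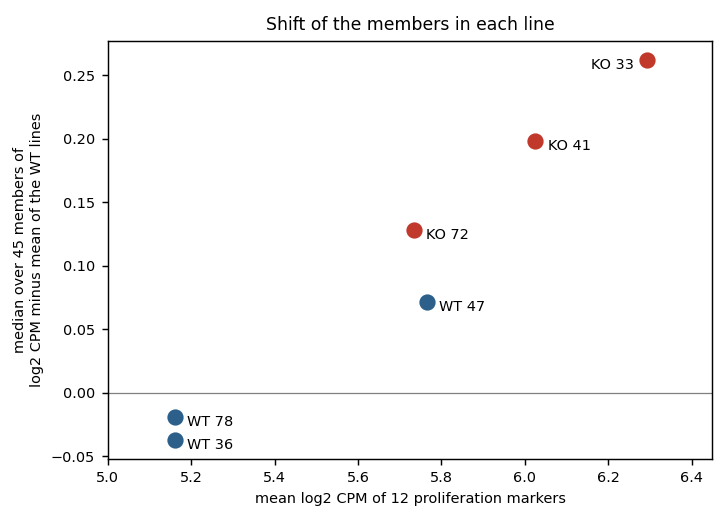
Median over the 45 genes of the log2 CPM difference from the WT mean (y axis) against the mean log2 CPM of 12 proliferation markers (x axis), with 1 point per line (WT blue, KO red). KO line 72 and WT line 47 lie side by side in the score, at 5.73 and 5.77, with medians of 0.13 and 0.072.

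**Figure D4:**
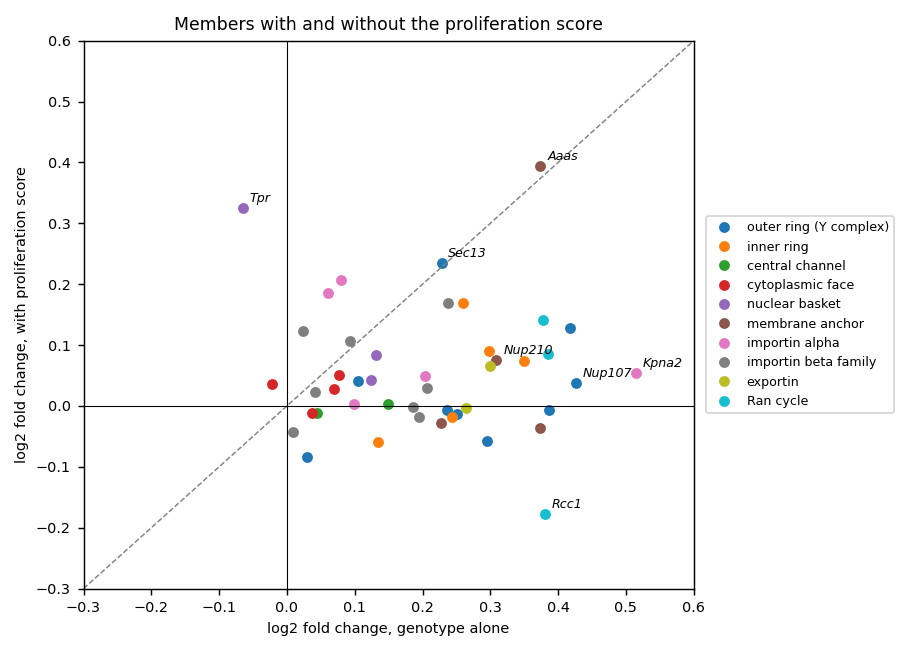
Log2 fold change of each of the 45 genes (KO minus WT) with genotype alone (x axis) and with the proliferation score as a further term (y axis); colours give the role, and the dashed line marks equal values. Most points lie below the dashed line, Sec13 and Aaas lie close to it, and Tpr lies far above it.

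The outer ring, or Y complex, is the scaffold that coats the nuclear envelope on both faces of the pore. All 9 of its measured genes were higher in KO, with a median log2 fold change of 0.25, 6 had an unadjusted p-value under 0.05, and 3 did not overlap between the genotypes. Sec13, which is shared with the COPII coat of vesicles leaving the endoplasmic reticulum, measured 108, 104 and 101 CPM in WT lines 36, 47 and 78 and 122, 121 and 123 CPM in KO lines 33, 41 and 72. The KO lines were nearly equal and sat above all WT lines, with a log2 fold change of 0.23 ± 0.056 (SE; adjusted p = 0.165). Its adjusted p over the alternatives ran from 0.00428, the DESeq2 value, to 0.754. Nup107, a core subunit of the complex, measured 25.8, 33.2 and 28.0 CPM in WT lines 36, 47 and 78 and 44.2, 39.2 and 33.4 CPM in KO lines 33, 41 and 72. Here KO line 72 exceeded the highest WT line by a narrow margin, and the log2 fold change of 0.43 ± 0.14 (adjusted p = 0.255) was the largest of any nucleoporin.

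In the other 4 outer-ring genes of this kind, KO lines 33 and 41 exceeded every WT line and KO line 72 did not. Nup43, a peripheral WD-repeat subunit, had 7.24, 9.44 and 7.51 CPM in WT lines 36, 47 and 78 and 11.5, 11.04 and 9.06 CPM in KO lines 33, 41 and 72. Nup37, another WD-repeat subunit, had 7.39, 7.91 and 8.25 CPM in WT lines 36, 47 and 78 and 11.97, 11.4 and 8.05 CPM in KO lines 33, 41 and 72, so that KO line 72 fell among the WT lines. For Nup133, a subunit with a membrane-sensing domain, the levels were 34.0, 40.4 and 33.8 CPM in WT lines 36, 47 and 78 and 45.1, 42.2 and 40.1 CPM in KO lines 33, 41 and 72. For Nup160, which forms an arm of the Y, they were 45.5, 55.7 and 49.99 CPM in WT lines 36, 47 and 78 and 65.6, 59.2 and 55.0 CPM in KO lines 33, 41 and 72. The log2 fold changes of these genes were 0.39 ± 0.15, 0.42 ± 0.17, 0.24 ± 0.096 and 0.25 ± 0.10 in that order, with adjusted p from 0.329 to 0.339. Of the remaining members, Nup85 (0.30 ± 0.14) and Ahctf1 (0.10 ± 0.059), the chromatin-binding protein that seeds pore assembly after mitosis, were nearer to the median than Seh1l (0.030 ± 0.093), in which KO line 72 was the lowest of the 6 lines at 55.5 CPM.

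The inner ring lies in the plane of the envelope and joins the scaffold to the membrane and the channel. All 5 genes were higher in KO, with a median of 0.26 and 3 at an unadjusted p-value under 0.05. Nup205, a large scaffold subunit, measured 100.3, 120.5 and 103 CPM in WT lines 36, 47 and 78 and 148, 141 and 124 CPM in KO lines 33, 41 and 72. Nup155, which links the ring to the membrane, measured 60.4, 73.5 and 67.3 CPM in WT lines 36, 47 and 78 and 87.5, 81.9 and 78.1 CPM in KO lines 33, 41 and 72. Nup35, a small subunit that binds membrane, measured 12.1, 14.1 and 14.2 CPM in WT lines 36, 47 and 78 and 16.8, 15.5 and 16.1 CPM in KO lines 33, 41 and 72. In these 3 genes every KO line exceeded every WT line, with log2 fold changes of 0.35 ± 0.10 (adjusted p = 0.218), 0.30 ± 0.091 (adjusted p = 0.228) and 0.26 ± 0.097 (adjusted p = 0.306). The paralogous scaffold subunit Nup188 (0.24 ± 0.11) and Nup93 (0.13 ± 0.085), which connects the ring to the channel, overlapped between genotypes through KO line 72.

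Membrane nucleoporins and their partners gave a median of 0.34 over 4 genes, all higher in KO, with 2 at an unadjusted p-value under 0.05. Aaas encodes ALADIN, which is held at the pore by NDC1, and measured 26.9, 28.5 and 23.7 CPM in WT lines 36, 47 and 78 and 32.5, 30.3 and 39.6 CPM in KO lines 33, 41 and 72. KO line 72 was by a wide margin the highest line, and the genotypes did not overlap, with a log2 fold change of 0.37 ± 0.13 (SE; adjusted p = 0.266). Ndc1, a transmembrane nucleoporin, measured 41.1, 49.7 and 40.3 CPM in WT lines 36, 47 and 78 and 67.1, 54.1 and 48.6 CPM in KO lines 33, 41 and 72. There KO line 72 fell just under WT line 47, and the estimate was 0.37 ± 0.14 (adjusted p = 0.317). Pom121 (0.23 ± 0.099), a further transmembrane member, shared 11.9% of its exon bases with a gene on the opposite strand, the most of the 15 members that share any, and use of strand in counting was not stated. Nup210, a membrane glycoprotein known for its role in muscle and neural differentiation, was close to the lower end of measurement with 0.610 to 0.910 CPM in WT and 0.651 to 1.26 CPM in KO, and its log2 fold change was 0.31 ± 0.33.

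The channel, the filaments and the basket held no gene with an unadjusted p-value under 0.05. Nup54, a channel nucleoporin with phenylalanine-glycine repeats, measured 20.6, 23.0 and 23.2 CPM in WT lines 36, 47 and 78 and 26.7, 24.3 and 23.1 CPM in KO lines 33, 41 and 72, and the log2 fold change was 0.15 ± 0.091 (adjusted p = 0.505). KO lines 33 and 41 were the highest and KO line 72 fell among the WT lines. Nup98, a repeat protein of both faces, was at 0.045 ± 0.060. On the cytoplasmic face, Nup214, a docking site for export complexes, measured 69.3, 72.8 and 68.0 CPM in WT lines 36, 47 and 78 and 73.1, 72.1 and 76.4 CPM in KO lines 33, 41 and 72, with a log2 fold change of 0.077 ± 0.059 (SE; adjusted p = 0.594). The genotypes overlapped there, and the other 3 genes of that face, Rae1 (0.069), Nup88 (0.036) and Ranbp2 (-0.022), lay near 0 on the log2 scale. Their SEs were 0.064, 0.054 and 0.071.

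In the nuclear basket Nup153, which anchors the basket to the ring, measured 111, 119 and 117 CPM in WT lines 36, 47 and 78 and 128, 124 and 127 CPM in KO lines 33, 41 and 72. All KO lines exceeded all WT lines by a small margin, with a log2 fold change of 0.13 ± 0.058 (SE; adjusted p = 0.369). Nup50, a cofactor of importin alpha, was likewise without overlap at 0.12 ± 0.060 (adjusted p = 0.413). Tpr, the coiled-coil protein of the basket filaments, stood apart from the list. It measured 201, 209.9 and 250.2 CPM in WT lines 36, 47 and 78 and 168, 179.9 and 283 CPM in KO lines 33, 41 and 72, so that KO lines 33 and 41 were the lowest of the 6 lines and KO line 72 the highest. The log2 fold change was -0.065 ± 0.21 (adjusted p = 0.912), and without KO line 72 it was -0.33 (adjusted p = 0.217).

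**Figure D5:**
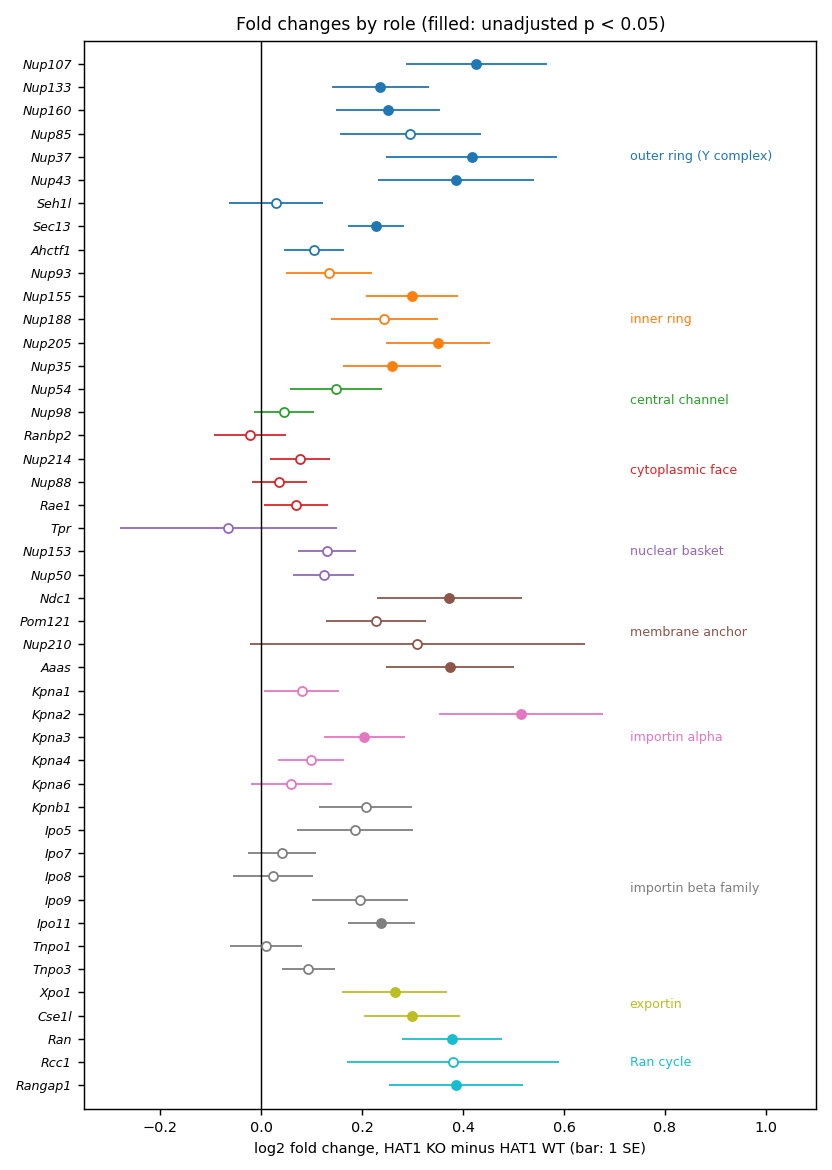
Log2 fold change (KO minus WT) of each of the 45 genes with its SE as a bar, ordered by role. All but Tpr and Ranbp2 lie to the right of 0, and Kpna2 has the largest value, 0.51.

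Importin alpha adaptors bind the classical nuclear localisation signal. The 5 genes were all higher in KO but spread widely, with a median of 0.099 and 2 at an unadjusted p-value under 0.05. Kpna2, an adaptor that is abundant in dividing cells, measured 83.3, 109 and 76.8 CPM in WT lines 36, 47 and 78 and 148, 122 and 114 CPM in KO lines 33, 41 and 72. All KO lines exceeded all WT lines, although WT line 47 lay closer to KO line 72 than to the other WT lines, and the log2 fold change of 0.51 ± 0.16 (adjusted p = 0.241) was the largest of the 45 genes. Kpna3, of another subfamily, measured 94.7, 103 and 90.01 CPM in WT lines 36, 47 and 78 and 111, 117 and 103 CPM in KO lines 33, 41 and 72. KO line 72 exceeded WT line 47 only past the third digit, and the estimate was 0.20 ± 0.081 (adjusted p = 0.326). Kpna4 was at 0.099 ± 0.065. Kpna1 (0.080 ± 0.074) and Kpna6 (0.060 ± 0.081), which belong to one subfamily, had KO line 72 as their highest line, at 105 and 160.3 CPM.

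Importin beta family receptors bind nucleoporin repeats and ferry cargo inward. All 8 were higher in KO with a median of 0.14, and 1 had an unadjusted p-value under 0.05. Ipo11, which imports ubiquitin-conjugating enzymes among other cargo, measured 38.1, 38.8 and 35.5 CPM in WT lines 36, 47 and 78 and 45.7, 42.5 and 44.4 CPM in KO lines 33, 41 and 72. Its lines did not overlap, with a log2 fold change of 0.24 ± 0.066 (SE; adjusted p = 0.205). Kpnb1, importin beta itself and the partner of importin alpha, was at 0.21 ± 0.092 (adjusted p = 0.373), and its KO line 72 fell just under WT line 47. Ipo9, a carrier of histones H2A and H2B, was at 0.20 ± 0.095, and Ipo5, a carrier of histones and ribosomal proteins, at 0.19 ± 0.11. Tnpo3, the importer of serine-arginine splicing factors, did not overlap at 0.093 ± 0.052. Ipo7 (0.041 ± 0.068), Ipo8 (0.023 ± 0.079) and Tnpo1 (0.0091 ± 0.071), the importer of proteins with the proline-tyrosine signal, lay nearest to 0.

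Exportins leave the nucleus together with Ran in its GTP form. Both measured exportins were higher in KO, each with an unadjusted p-value below 0.05. Cse1l, the exportin that returns importin alpha to the cytoplasm, measured 91.5, 105 and 85.8 CPM in WT lines 36, 47 and 78 and 119.8, 120.3 and 107 CPM in KO lines 33, 41 and 72. The lines did not overlap, with a log2 fold change of 0.30 ± 0.096 (SE; adjusted p = 0.247). Xpo1, or CRM1, the receptor for leucine-rich export signals, measured 120.1, 145 and 131 CPM in WT lines 36, 47 and 78 and 172, 162 and 142 CPM in KO lines 33, 41 and 72. KO line 72 lay below WT line 47 in this gene, and the estimate was 0.26 ± 0.10 (adjusted p = 0.327).

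The Ran cycle had the largest class median, 0.38 over 3 genes, and a summed level in KO that was 130.1% of WT. Ran measured 235, 257 and 215 CPM in WT lines 36, 47 and 78 and 329, 309.8 and 279 CPM in KO lines 33, 41 and 72. All KO lines exceeded all WT lines, with a log2 fold change of 0.38 ± 0.099 (SE; adjusted p = 0.187), and DESeq2 gave an adjusted p of 0.0222, the lowest over the alternatives, which reached 0.772. Rangap1, the activator of GTP hydrolysis by Ran, measured 96.0, 122 and 85.8 CPM in WT lines 36, 47 and 78 and 139, 127 and 131 CPM in KO lines 33, 41 and 72. It did not overlap either, at 0.39 ± 0.13 (adjusted p = 0.276). Rcc1, the chromatin-bound exchange factor that loads Ran with GTP, had 23.0, 29.1 and 26.4 CPM in WT lines 36, 47 and 78 and 43.4, 34.0 and 24.8 CPM in KO lines 33, 41 and 72. KO line 72 fell among the WT lines there, and the estimate of 0.38 ± 0.21 had an adjusted p of 0.462.

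Levels per length are those of TMM-scaled CPM per kilobase of exon, mean ± SD over 3 lines. The highest were Kpnb1 with 92.7 ± 7.69 in WT and 107 ± 6.44 in KO, and Ran with 89.0 ± 8.02 and 116 ± 9.47. The order of these top genes was within their spread in both genotypes. Ipo5 followed in WT with 53.4 ± 4.23, then Sec13 with 32.7 ± 1.1. The lowest level was that of Nup210 with 0.0717 ± 0.0144 in WT, followed by Nup37 with 2.36 ± 0.131. Lines of one genotype agreed closely for these genes, with a median coefficient of variation of 6.50% in WT and 8.13% in KO, where all genes tested had 9.43% and 13.0%.

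Genes of nuclear transport outside the list were also mostly higher in KO. A list of 30 such genes had 27 in the count table, of which 25 were higher in KO, with a median log2 fold change of 0.080, where 51.5% of all genes were above 0. An unadjusted p-value under 0.05 was reached by 6, all higher, where 5.88% of all genes were higher at it, and 0 passed the adjusted threshold. Alyref, an adaptor of mRNA export, measured 43.8, 48.0 and 38.8 CPM in WT lines 36, 47 and 78 and 57.8, 55.4 and 52.1 CPM in KO lines 33, 41 and 72, with a log2 fold change of 0.34 ± 0.094 (SE; adjusted p = 0.202). Xpo4, an exportin, had a log2 fold change of 0.27 ± 0.070 (SE; adjusted p = 0.188), and Ranbp1, which assists RANGAP1, had a log2 fold change of 0.27 ± 0.097 (SE; adjusted p = 0.293). Nutf2, the importer of Ran, was at 0.23 ± 0.077, Senp1, a SUMO protease found at pores, at 0.19 ± 0.071, and Ipo4, the importer of new histones H3 and H4, at 0.20 ± 0.071. With the proliferation score as a term the median of the 27 was 0.10 and the number above 0 fell to 17. Of the 6 named genes, Alyref was then at 0.13, Xpo4 at 0.15, Ranbp1 at 0.057, Nutf2 at 0.13 and Senp1 at 0.17, all closer to 0, while Ipo4 was at 0.24.

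Promoters of the members were searched for letters of known cell-cycle and housekeeping motifs. RefSeq entries on GRCm38.p6 matched 37 of the 45 genes, and the 250 bases before the start were read on both strands, beside those of 11483 tested genes. CCAAT occurred in 15 of 37, where 39.9% of all genes held it. The core TTTGAA occurred in 9 of 37, against 13.2% of all genes. The E2F letters TTTCCCGC were found in 1 of 37 (1.89% of all genes) and TTTGGCGC in 0 (0.862%). CACGTG was found in 6 (9.67%) and GCGCATGC in 3 (4.58%). Of the 18 members with an unadjusted p-value under 0.05, 14 had an entry, and among these CCAAT occurred in 5, TTTGAA in 4, CACGTG in 1 and GCGCATGC in 2. Distances were counted from the RefSeq start, which lies beyond the ends of the sequences printed above for Kpna2, Sec13 and Ran. The Kpna2 core began 35 bases and its CCAAT 25 bases before that start, whereas the Sec13 core began 209 bases before its own. The NRF1 core, whose matches on the opposite strands overlap, began 65 bases before the start of Nup107 and 205 before that of Ran, and the E box of Ran began 118 bases before. These matches describe letters in the windows and not bound sites.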

How the data were processed

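RNA of 6 primary fibroblast lines was sequenced with 1 library per line, and the genotype in the labels gave the groups of 3. The authors deposited raw read counts per gene with no normalization. Their processing notes name mm10 and edgeR without a version, and the aligner, counter and use of strand were not given in the sources used here. The deposited table also held the authors' own comparison (fold changes, an F score, p-values and q-values), which was not used. Every sample column had a sample.

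Genes were looked up in GENCODE M21 (GRCm38, the assembly called mm10) by their Ensembl identifiers. The test on these counts was that of edgeR 4.0.16 under R 4.3.3, using filterByExpr, TMM scaling and a quasi-likelihood fit on genotype alone over all 14773 genes, two-sided, with Benjamini-Hochberg adjustment and a threshold of 0.05. The SE, an approximate one, is the log2 fold change divided by the root of F. With 3 lines against 3, an exact permutation test cannot go below 0.1. Depths of 67720628 to 98786746 counts put 44 to 64552 counts on a member in a library, and 546 or more where Nup210 is left out. The fits on genotype alone with edgeR, DESeq2 and voom were tested on simulated counts. Fits with a further term were not part of that test.

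Alternatives were DESeq2 1.42.0, DESeq2 size factors, library size alone, other filters, limma 3.58.1 voom with sample weights, lane or the proliferation score in the model, and leaving out each line. A Y-linked term, which marked WT lines 36 and 47, was added after seeing the data. The members and all gene lists were chosen with earlier results of these data known, so no list was tested as a set. Values by line are given for members with an unadjusted p-value under 0.05, and otherwise for the member with the smallest p in its role class. Other members are given by their fitted values; the line values of Tpr, Rcc1 and Nup210, and single lines of Seh1l, Kpna1 and Kpna6, were chosen after their values were seen. Of the other nuclear transport genes, those with an unadjusted p-value under 0.05 are named.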

Additional observations from a re-analysis of the deposited data

How the results depend on the processing

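No paired analysis was possible because the genotypes share no replicate numbers. Over the 15 alternatives the median log2 fold change of the 45 genes stayed above 0, and 0 members passed the adjusted threshold in any of them other than DESeq2's Wald test, which called 2. The number at an unadjusted p-value under 0.05, 18 under genotype alone, was 2 with lane in the model and 0 with the proliferation score. With that score the median was 0.038 and 29 members were higher. Leaving out a line gave 4 to 26 members at that threshold, a median of 0.17 to 0.27, 41 to 45 members higher and 16 to 37 without overlap. The number at an unadjusted p-value under 0.05 was 4 without WT line 36, 20 without WT line 47 and 5 without WT line 78. It was 5 without KO line 33, 8 without KO line 41 and 26 without KO line 72 (25 of them higher, and Tpr lower). In these fits 3.02% to 9.06% of all genes were higher at that threshold. Without WT line 47, 29 members had no overlap, all higher (14.2% of all genes). Without KO line 72, 37 had none, of which 35 were higher (18.4% of all genes). Some estimates changed sign. With the score these were Nup133 (-0.0064), Nup160 (-0.014), Nup85 (-0.057), Nup43 (-0.0060), Seh1l (-0.085), Nup93 (-0.060), Nup188 (-0.018), Nup98 (-0.011), Ranbp2 (0.036), Nup88 (-0.012), Tpr (0.32), Ndc1 (-0.036), Pom121 (-0.028), Ipo5 (-0.0023), Ipo9 (-0.019), Tnpo1 (-0.043), Xpo1 (-0.0033) and Rcc1 (-0.18). With voom it was Ipo8 (-0.028). Without KO line 41 they were Seh1l (-0.035), Ipo7 (-0.0044), Tnpo1 (-0.036) and Tpr (0.036), without KO line 72 Kpna6 (-0.0076) and Ipo8 (-0.046), without WT line 78 Ranbp2 (0.0094) and Tpr (0.041), and without KO line 33 Ranbp2 (0.018) and Tpr (0.073). The values without one line at the other end were 0.13 for Seh1l, 0.087 for Ipo7, 0.061 for Tnpo1, -0.33 for Tpr and -0.049 for Ranbp2 (all without KO line 72), and 0.10 for Kpna6 and 0.064 for Ipo8 (without KO line 33). The cause was not tested. Of the values of single members under the alternatives, 644 kept their direction and side of the threshold, 29 changed sign and 2 passed the threshold where they had not before. As 0 members were called under genotype alone, keeping the side of the threshold says little, and the tally does not cover size. With the proliferation score, 11 members had a log2 fold change more than 90% smaller. Hat1 kept its direction in all 15 and lost its call in 9. Nup210 had as few as 44 counts in a library, and every other member at least 546. Whether depth or the number of lines limited the calls was not tested.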
